A study of Mus musculus with 46 samples.

Results

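Rows of the authors' comparison table whose gene symbol is Rpl or Rps followed by a digit were collected, without the names that end in -ps and without the S6 kinases. The rule found 17 rows of 26272. Of these 17, 12 have a value on every array and 8 passed the filter on low values. The set was described as cytosolic ribosomal protein genes, and the table goes against that description. Of 77 core ribosomal protein genes in the mouse RefSeq annotation, 0 have a row that carries their own symbol at their own locus, 68 loci overlap no row, and 9 overlap a row of another gene. Rpsa and the stalk genes Rplp0, Rplp1 and Rplp2 have no row either. The 77 genes all bear Rpl or Rps names, and Fau, a gene for a small subunit protein without such a name, is given further below. The 17 rows are retrocopies, pseudogene loci that bear a ribosomal protein name, paralogues, and Rps19bp1, which encodes a protein that binds RPS19 and is not part of the ribosome. They are called here the Rpl- and Rps-named rows.

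RNA came from the nucleus accumbens of 46 male mice, 1 Affymetrix MTA 1.0 array per mouse, of inbred strains, 23 of C57BL/6J and 23 of DBA/2J. All mice carried a subcutaneous osmotic minipump for 14 days, which released nicotine at a daily dose of 24 mg per kg body weight, or saline alone. Chronic mice kept the pump until death, and withdrawal mice had it taken out 24 h before. This gives 8 groups of 5 or 6 mice, with 5 in C57BL/6J chronic nicotine and in DBA/2J withdrawal nicotine. Saline withdrawal mice went through the same pump surgery as nicotine withdrawal mice. Ages are not given in the labels. Array medians lay between 6.52 and 6.63 in log2 units, and the number of arrays limits the precision. The spiny neuron markers Drd1, Drd2, Adora2a and Ppp1r1b were above the array median on 46 of 46 arrays.

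A ribosome is built from ribosomal RNA and from proteins of a small subunit (Rps) and a large subunit (Rpl). Messenger RNAs of these proteins usually begin with a C followed by a run of pyrimidines, the 5' TOP tract, through which the mTOR pathway and LARP1 adjust their translation. Because the messages are abundant, they have been copied back into the genome many times: most such retrocopies lack introns and many are pseudogenes, while a few are kept as genes. Some paralogues replace a core protein in one tissue, as RPL10L and RPL39L do in the testis and RPL3L in heart and skeletal muscle.

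Coordinates are those of the deposited table, whose genome build is not given in the sources used here. At the positions of the RefSeq assembly GRCm38.p6, 98.9% of 23561 rows overlapped the gene of the same symbol. By that comparison, 5 of the 17 rows lie on another chromosome than the gene whose name they bear. The row named Rpl31, at chr7:101790292-101790881, lies within the span of Clpb, a mitochondrial chaperone gene, while the gene Rpl31 is on chromosome 1. The row named Rpl7a, at chr9:84423958-84424826, covers the pseudogene Gm8226, and the gene is on chromosome 2. The row named Rpl41, at chr14:105681827-105682229, covers the pseudogene Gm10076, and the gene is on chromosome 10. The row named Rpl29, at chr5:115801554-115802196, covers the pseudogene Gm13841, and the row named Rpl35 is the last of the 5. Whether probes of these rows also bind RNA of the core gene was not tested, because probe sequences were not analysed here. Whether the strains differ in sequence or copy number at the probes of any row was not tested either. Strain differences below are therefore differences of array signal.

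The other 12 rows overlap the RefSeq gene of their symbol. Retrocopies among them are Rps27rt (chr9:114982366-114982739, within Osbpl10, 15 probes), Rpl32l (chr10:20208439-20209030, within Map7), Rpl37rt (chr5:115102922-115110268) and Rps4l (chr6:148354656-148355598, a transcribed pseudogene in RefSeq). Of these, Rps27rt, Rpl32l and Rpl37rt are protein-coding genes in RefSeq. The rows called paralogues here are Rps27l (chr9:66946086-66949516), Rpl7l1 (chr17:46773907-46782656), Rpl22l1 (chr3:28805436-28807419), Rpl10l (chr12:66283379-66284401), Rpl36al (chr12:69182731-69184083), Rpl39l (chr16:10170226-10174911) and Rpl3l (chr17:24727820-24736149, 150 probes). Whether any of these paralogues also arose as a retrocopy was not tested. Rps19bp1 lies at chr15:80260614-80264306.

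The starts of the 5 tested members at their own locus are shown to set these retrocopies and genes beside a core gene, 1 start for each. Each line holds 20 bases before and 20 bases from the RefSeq transcription start on, 5' to 3', from the RefSeq start table (GRCm38.p6), and capitals mark a C followed by at least 4 bases that are C or T, beginning within 5 bases of the start. Only the transcribed strand was searched. The core gene Rps27 is added for comparison with its retrocopy. Rps27l has another start in that table, at chr9:66946393-66946432, which holds no such tract and is not shown.
Rps27 (chr3:90213629-90213668, minus strand): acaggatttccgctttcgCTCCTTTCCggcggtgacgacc
Rps27rt (chr9:114982720-114982759, minus strand): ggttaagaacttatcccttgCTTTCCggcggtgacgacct
Rps27l (chr9:66946066-66946105, plus strand): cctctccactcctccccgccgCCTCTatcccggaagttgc
Rpl32l (chr10:20208419-20208458, plus strand): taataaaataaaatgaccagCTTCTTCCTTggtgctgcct
Rpl7l1 (chr17:46782637-46782676, minus strand): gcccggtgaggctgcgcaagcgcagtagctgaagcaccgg
Rps19bp1 (chr15:80264287-80264326, minus strand): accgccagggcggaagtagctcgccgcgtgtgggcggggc
The annotated starts of the retrocopies Rps27rt and Rpl32l begin at the first base of such a tract, and that of the retrocopy Rpl37rt holds none. Identity was counted over at most 50 transcribed bases in that table, without gaps, at the offset with the most matches. By this count 39 of 49 bases of Rps27rt were identical to Rps27, against 17 of 46 for the paralogue Rps27l. For Rpl37rt, 19 of 50 were identical to Rpl37. Choosing the best offset raises such counts for unrelated sequences too, and what those would give was not tested. The tract stood at a start of 4 of the 11 members with a start sequence at their own locus. It stood at 27 of 57 core ribosomal protein genes in the table (47.4%) and at 5718 of 27025 genes in all (21.2%). The table holds no start of the rows named Rpl31, Rpl7a and Rpl41 at the loci measured here.

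On the arrays, the 8 members that passed the filter were above the array median on 46 of 46 arrays. Their within-group SD had a median of 0.17 in log2 units, against 0.12 over all 9596 genes tested. The row named Rpl41, after the smallest ribosomal protein, varied most, with values from 14.39 to 16.13 and a within-group SD of 0.26. Rps27l, whose human counterpart is induced by p53, varied least of the 8, from 7.92 to 8.55 with an SD of 0.10. Rpl10l, Rpl36al, Rpl39l and Rpl3l stayed under the array median on all 46 arrays, with values from 4.47 to 6.30, and were not tested.

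The array of C57BL/6J chronic saline mouse 3 stood apart before any comparison. Its correlation with the rest of its group, 0.993, was the lowest of the 46 arrays, while the other arrays of its group reached at least 0.996. Its mean level of 8 spiny neuron markers was 11.83, below the range of 12.34 to 12.81 in the other mice of the group. Its mean level of 4 markers of cortical excitatory neurons was 12.54, above their range of 10.87 to 12.51. Its mean level of 3 microglial markers was 8.46, below their range of 8.57 to 8.71. Its mean levels of astrocyte, endothelial, meningeal, oligodendrocyte and red cell markers lay within the ranges of those mice. It was the lowest mouse of its group in all 5 tested rows that are retrocopies or lie at pseudogenes or within another gene (Rpl31, Rpl7a, Rps27rt, Rpl32l, Rpl41), with deviations from the group mean of -0.89 to -0.38. It was also lowest for the paralogue Rpl7l1, at 9.42, and not for Rps27l or Rps19bp1. The part of cell makeup in these values was not tested. Values without this mouse follow beside the results that it moves most.

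**Figure D1:**
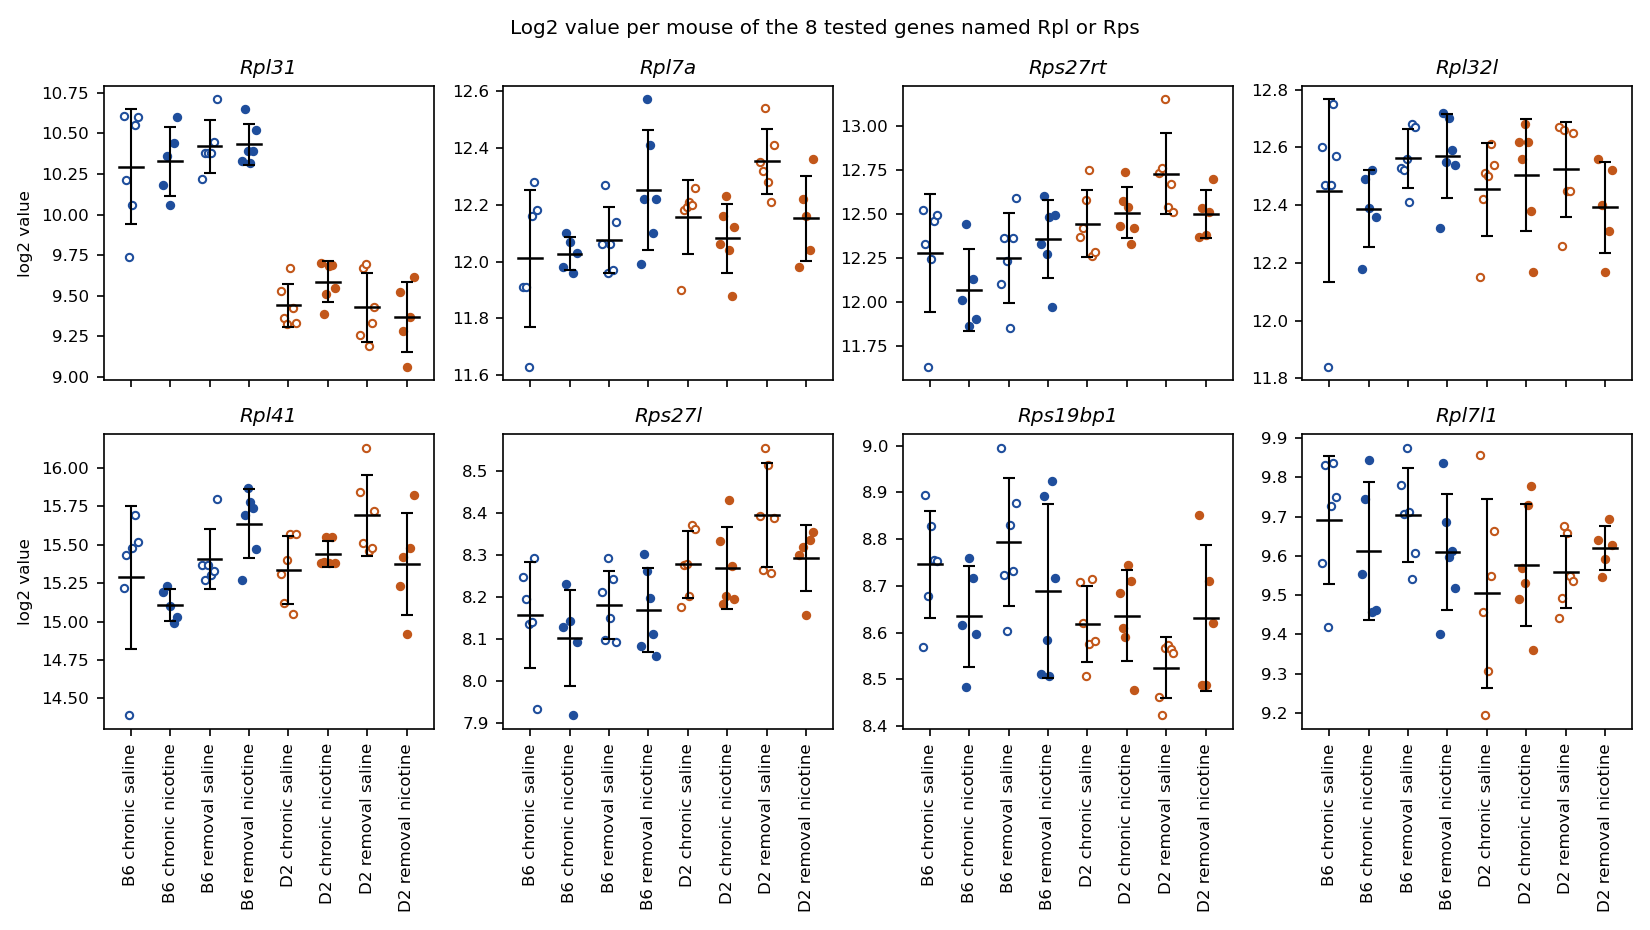
Log2 value of each of the 8 tested rows in each mouse (points), by group, with the group mean and SD (bars). B6 is C57BL/6J (blue), D2 is DBA/2J (orange), open points are saline and filled points nicotine mice, and removal means that the pump was taken out. The rows named Rpl31 separate the strains in every group, and the lowest point of Rpl41, at 14.39, is C57BL/6J chronic saline mouse 3.

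Strain was compared first among the saline mice, 12 per strain, with limma over all 9596 genes. DBA/2J differed from C57BL/6J in 6 of 8 members, 3 higher and 3 lower, at an adjusted p under 0.05, while 31.8% of all genes tested passed (1193 higher and 1859 lower). The median difference of the 8 members was 0.07 log2 units, beside -0.02 over all genes. The same comparison was then made in 11 nicotine mice per strain, which are other animals. There 3 of 8 members passed, 2 higher and 1 lower, while 26.2% of all genes tested passed, and the median difference was -0.02 for the members and 0.02 for all genes. Without C57BL/6J chronic saline mouse 3 the members' median in saline mice was 0. Of all genes, 1693 passed in both with the same sign and 2 with opposite signs.

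The row named Rpl31 had the largest strain difference among the members. In saline mice its log2 value ran from 9.19 to 9.69 in DBA/2J, with a median of 9.39, and from 9.74 to 10.71 in C57BL/6J, with a median of 10.38. In nicotine mice it ran from 9.06 to 9.70 in DBA/2J, with a median of 9.52, and from 10.06 to 10.65 in C57BL/6J, with a median of 10.39. Every DBA/2J mouse lay below every C57BL/6J mouse in both comparisons. How many of all genes separate the strains in this way was not counted. The difference was -0.92 (SE 0.08, 95% confidence interval -1.09 to -0.76, adjusted p 9.21e-13) in saline mice, which is 0.527 times the C57BL/6J signal. It was -0.90 (SE 0.08, adjusted p 8.43e-12) in nicotine mice. By size it ranked 95 of 9596 genes in saline mice and 103 in nicotine mice. The lowest C57BL/6J value, 9.74, belonged to mouse 3 of the chronic saline group, and without that mouse the difference was -0.98 and 6 of 8 members still passed.

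The row named Rpl31 was lower in DBA/2J in each of the 4 pairs of groups. The difference was -0.86 in chronic saline, -0.99 in saline withdrawal, -0.74 in chronic nicotine and -1.06 in nicotine withdrawal mice, with adjusted p-values of at most 6.77e-06. Its values in the 5 C57BL/6J chronic nicotine mice were 10.18, 10.36, 10.06, 10.44 and 10.60. In the 5 DBA/2J nicotine withdrawal mice they were 9.52, 9.28, 9.06, 9.37 and 9.61. Clpb, the gene whose span holds the row, differed in the opposite direction, by 0.10 (SE 0.04, adjusted p 0.0352) in saline and 0.15 (SE 0.04, adjusted p 0.00228) in nicotine mice.

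Rps27rt and Rps27l, a retrocopy and a paralogue of the small subunit gene Rps27, were both higher in DBA/2J in saline and in nicotine mice. Rps27rt ran from 12.26 to 13.15 in DBA/2J saline mice (median 12.56) and from 11.63 to 12.59 in C57BL/6J saline mice (median 12.34). The strains overlapped, and 11 of 12 DBA/2J mice lay above the C57BL/6J mean. Its difference was 0.32 (SE 0.09, adjusted p 0.00456) in saline and 0.29 (SE 0.09, adjusted p 0.0177) in nicotine mice, and 0.26 (adjusted p 0.0112) in saline mice without C57BL/6J chronic saline mouse 3. Osbpl10, the gene around Rps27rt, gave -0.03 and 0.03 (adjusted p 0.591 and 0.656).

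Rps27l ran from 8.18 to 8.55 in DBA/2J saline mice (median 8.32) and from 7.93 to 8.29 in C57BL/6J saline mice (median 8.17). All 12 DBA/2J mice lay above the C57BL/6J mean, although the ranges overlapped. The difference was 0.17 (SE 0.04, adjusted p 0.0018), which is 1.12 times the C57BL/6J signal, and 0.14 (SE 0.04, adjusted p 0.0115) in nicotine mice. Both genes lie on chromosome 9. In the chronic saline groups alone the differences were 0.12 for Rps27l and 0.17 for Rps27rt (adjusted p 0.161 and 0.398), and in the saline withdrawal groups alone 0.21 and 0.48 (adjusted p 0.00828 and 0.00524). In nicotine mice the order was the other way for Rps27rt, with 0.44 in chronic and 0.14 in withdrawal groups (adjusted p 0.0174 and 0.547), and Rps27l gave 0.17 and 0.12 (adjusted p 0.0613 and 0.201).

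Rpl7a, Rps19bp1 and Rpl7l1 passed in saline mice and not in nicotine mice. The row named Rpl7a ran from 11.90 to 12.54 in DBA/2J saline mice and from 11.63 to 12.28 in C57BL/6J saline mice, and was higher in DBA/2J by 0.21 (SE 0.06, adjusted p 0.00645). In nicotine mice it gave -0.02 (adjusted p 0.847). Rps19bp1, also known as an activator of the deacetylase SIRT1, was lower in DBA/2J saline mice, at -0.20 (SE 0.05, adjusted p 0.00182), with all 12 DBA/2J mice under the C57BL/6J mean, and gave -0.03 (adjusted p 0.738) in nicotine mice. Rpl7l1, a paralogue of the large subunit gene Rpl7, was lower in DBA/2J saline mice, at -0.17 (SE 0.06, adjusted p 0.0347) and gave -0.01 (adjusted p 0.916) in nicotine mice. The call for Rpl7l1 was lost with centred arrays (adjusted p 0.0609). In the chronic saline groups alone Rpl7a, Rps19bp1 and Rpl7l1 gave 0.15, -0.13 and -0.19 (adjusted p 0.255, 0.217 and 0.134). In the saline withdrawal groups alone they gave 0.28, -0.27 and -0.14 (adjusted p 0.0199, 0.00503 and 0.28).

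Whether the strain difference itself differed between saline and nicotine mice was tested in the same fit, a contrast added after the values above were seen. None of the 8 members passed, and 0% of all genes tested did, while 12.3% of genes had an unadjusted p under 0.05. The nicotine-mouse difference minus the saline-mouse difference was -0.23 for Rpl7a (95% confidence interval -0.41 to -0.05, unadjusted p 0.0121, adjusted p 0.331). It was 0.17 for Rps19bp1 (0.02 to 0.32, adjusted p 0.358) and 0.15 for Rpl7l1 (-0.03 to 0.33, adjusted p 0.47). For Rpl31 it was 0.02 (-0.22 to 0.26).

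Rpl32l and the row named Rpl41 did not pass in either comparison. Rpl32l gave -0.02 (95% confidence interval -0.16 to 0.13) in saline and -0.03 in nicotine mice. Map7, the gene around it, was lower in DBA/2J, at -0.35 (adjusted p 4.12e-09) in saline and -0.38 in nicotine mice. Without C57BL/6J chronic saline mouse 3, Rpl32l gave -0.08 (adjusted p 0.333) in saline mice. Rpl41 gave 0.16 (-0.04 to 0.37, adjusted p 0.234) in saline mice, 0.07 (adjusted p 0.53) without that mouse, and 0.03 in nicotine mice. Of the members under the array median, Rpl10l gave 0.26 (SE 0.08, adjusted p 0.0206) in saline mice and -0.04 (adjusted p 0.832) in nicotine mice when the filter was dropped, with DBA/2J values from 5.34 to 6.30 and C57BL/6J values from 5.17 to 6.01. Without the filter 22.2% of 16253 genes passed in saline mice and 15.3% in nicotine mice. Rpl36al, Rpl39l and Rpl3l gave 0.09, 0.03 and 0.03 in saline mice and 0.12, -0.16 and 0.01 in nicotine mice (lowest adjusted p 0.0832, for Rpl39l).

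**Figure D2:**
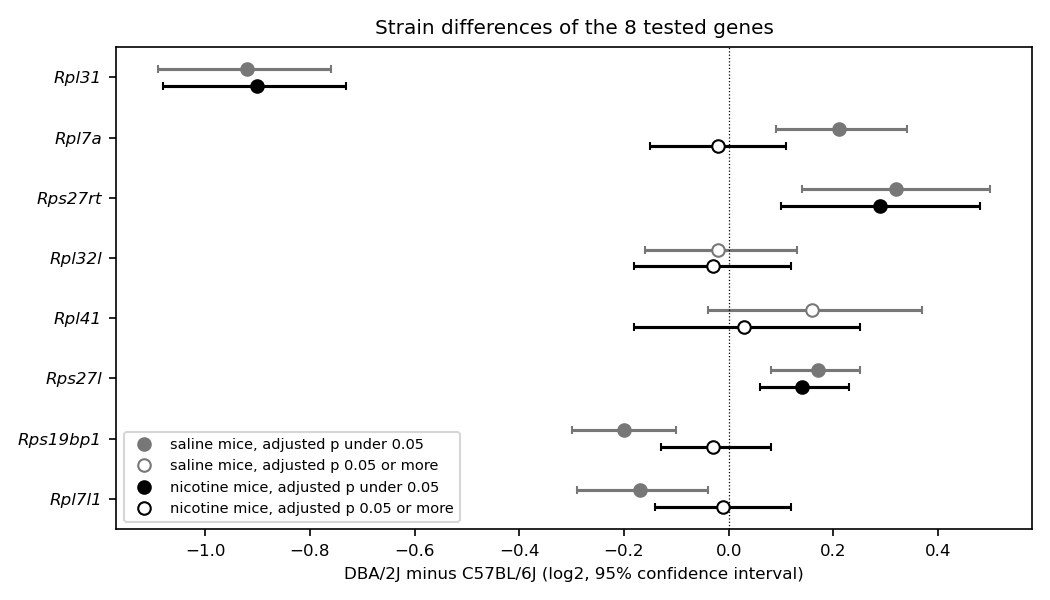
DBA/2J minus C57BL/6J in log2 units (x axis) for the 8 tested rows, with 95% confidence intervals, in saline mice (grey) and nicotine mice (black). Filled points passed an adjusted p of 0.05, and Rpl31 is the only row with intervals wholly below -0.7.

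Some cell type markers differed between the strains, while 31.8% of all genes tested passed in saline mice and 26.2% in nicotine mice. Of 8 oligodendrocyte markers tested, 4 were lower in DBA/2J saline mice (Mobp at -0.82, Mog at -0.33, Cnp at -0.21 and Mbp at -0.21). The mean level over those 8 ran from 11.89 to 12.37 in DBA/2J and from 11.99 to 12.70 in C57BL/6J. Of 8 spiny neuron markers, 4 were lower (Drd2 at -0.71, Gpr6 at -0.42, Adora2a at -0.41 and Ptpn5 at -0.27). Their mean level ran from 11.97 to 12.54 in DBA/2J and from 11.83 to 12.81 in C57BL/6J. Of 5 astrocyte markers, Gja1 and Gfap were higher in both comparisons. Of 4 cortical neuron markers only Nrn1 passed, higher at 0.87 in saline and 0.81 in nicotine mice, with list medians of -0.07 and -0.12. Of 3 microglial markers only Aif1 passed, higher at 0.15 and 0.11, with list medians of -0.01 and 0.11. In saline mice 1 of 4 meningeal markers (Dcn at 0.61, list median 0.18) and 1 of 3 endothelial markers (Cldn5 at -0.34, list median -0.10) passed. In nicotine mice 0 of these did. In nicotine mice the same number of oligodendrocyte markers, 4 of 8, and 2 of 8 spiny neuron markers (Drd2 at -0.55 and Gpr6 at -0.38) were lower. In bulk tissue, fewer cells of a type and less RNA per cell cannot be told apart, and the part of these markers in the members' differences was not tested.

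The rows most like the members are the 68 rows whose ribosomal protein name ends in -ps, 35 of them tested. In saline mice 12 of these were higher and 2 lower in DBA/2J, with a median of 0.15, and in nicotine mice 2 were higher and 3 lower, with a median of 0.10. That is 40.0% and 14.3% of these rows, beside 31.8% and 26.2% of all genes. Like Rpl31, a few had large strain differences in both comparisons. Rps2-ps6 gave -0.97 in saline and -1.05 in nicotine mice, Rps2-ps5 -0.73 and -0.69, and Rpl29-ps2 0.54 and 0.57.

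Other genes of ribosome production were compared by list, beside the 31.8% (saline mice) and 26.2% (nicotine mice) of all genes that passed. Of 27 ribosome biogenesis genes tested, 0 were higher and 8 lower in DBA/2J saline mice (median -0.06), and 5 were higher and 2 lower in nicotine mice (median 0.04), which is 29.6% and 25.9% and near the share of all genes. Nip7, which acts in the assembly of the large subunit, was lower, at -0.36 and -0.16, and so was Ubtf, a transcription factor of ribosomal RNA genes, at -0.18 and -0.19. Of 17 translation genes, 2 were higher and 1 lower in saline mice (median 0), and 5 were higher and 1 lower in nicotine mice (median 0.04). Naca, a subunit of the nascent polypeptide-associated complex, was higher in both comparisons, by 0.14 and 0.15. Of 16 genes of the mTOR and S6 kinase list, 3 were lower in saline mice (median -0.05), with Tsc2, an inhibitor of mTORC1, at -0.31 and Larp1 at -0.12. In nicotine mice 1 was higher and 1 lower, with Tsc2 at -0.19. Of 3 genes tested in a list of ubiquitin fusion genes and Rack1, 0 passed in saline mice and 1 was higher in nicotine mice. The list median was 0.06 in both comparisons. The gene that passed, Fau, encodes the precursor of the small subunit protein eS30 and was higher by 0.45 (adjusted p 0.000117). Of 3 mitochondrial ribosomal protein genes, Mrpl58 was lower in saline mice, at -0.19.

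Nicotine was compared with saline within each strain and phase, and no member passed. In each of these 4 comparisons 0 of 8 members and 0% of all 9596 genes tested had an adjusted p under 0.05 by limma. During chronic delivery the median member difference was -0.07 in C57BL/6J (all genes -0.03) and 0.06 in DBA/2J (all genes 0.02). Without C57BL/6J saline mouse 3 the first was -0.13 (all genes -0.04). After pump removal it was 0.01 in C57BL/6J (all genes -0.01) and -0.12 in DBA/2J (all genes 0.02). Unadjusted p-values under 0.05 were found for 0, 0, 1 and 2 members in that order, and for 449, 768, 287 and 523 of all genes.

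The members' 95% confidence intervals bound what these groups could hide. Their outer limits were -0.49 and 0.27 in C57BL/6J chronic mice, -0.25 and 0.40 in DBA/2J chronic mice, -0.27 and 0.52 in C57BL/6J withdrawal mice, and -0.62 and 0.26 in DBA/2J withdrawal mice. The smallest p-values belonged to pseudogene rows after pump removal. Rpl7a gave 0.18 (SE 0.09, adjusted p 1) in C57BL/6J and -0.20 (SE 0.09, adjusted p 0.857) in DBA/2J. Its values ran from 11.99 to 12.57 in C57BL/6J nicotine and from 11.96 to 12.27 in C57BL/6J saline withdrawal mice. In DBA/2J nicotine withdrawal mice they were 11.98, 12.22, 12.16, 12.04 and 12.36, against 12.21 to 12.54 in saline, so that the groups overlapped in both strains.

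Rpl41 followed the same order, at 0.23 (SE 0.15, adjusted p 1) in C57BL/6J and -0.31 (SE 0.15, adjusted p 0.857) in DBA/2J withdrawal mice. In DBA/2J its values were 15.23, 15.42, 14.92, 15.48 and 15.82 with nicotine and ran from 15.46 to 16.13 with saline. The retrocopy Rps27rt gave 0.11 and -0.23, and Rps27l -0.01 and -0.10. Rps19bp1 gave -0.10 in C57BL/6J and 0.11 in DBA/2J. In C57BL/6J chronic mice Rps27rt gave -0.21 (SE 0.13, adjusted p 0.992), and -0.34 (adjusted p 0.291) without saline mouse 3. Rpl41 gave -0.18 there, and -0.36 (adjusted p 0.291) without that mouse, and Rpl32l -0.07 and -0.19. Rpl31 gave 0.03, 0.14, 0.01 and -0.06 in the order of the medians above.

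**Figure D3:**
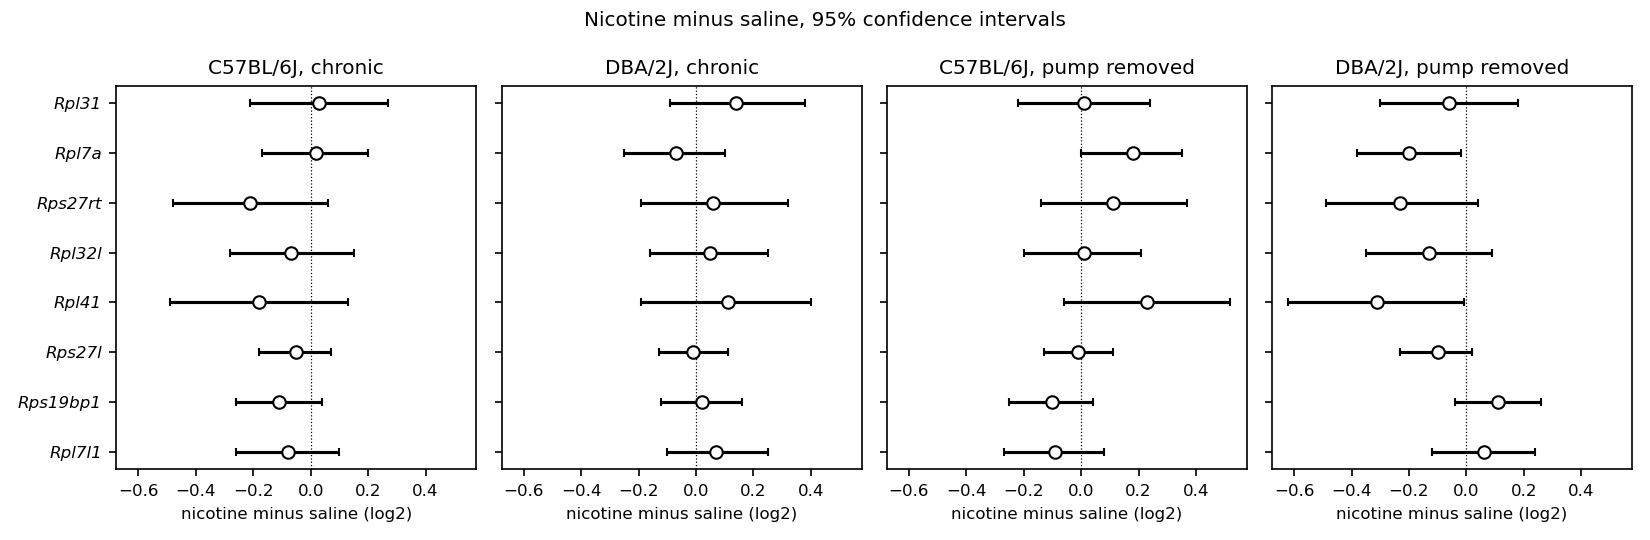
Nicotine minus saline in log2 units (x axis) with 95% confidence intervals for the 8 tested rows, in each strain and phase. No row passed an adjusted p of 0.05, and the widest excursion of an interval, to -0.62, is Rpl41 in DBA/2J after pump removal.

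The strain difference of the nicotine effect was tested next, and 0 of 8 members passed, with 0% of all genes called, in either phase. After pump removal it was -0.38 for Rpl7a (unadjusted p 0.00455, adjusted p 0.655), -0.54 for Rpl41 (0.0135 and 0.655) and 0.21 for Rps19bp1 (0.0468 and 0.689). The median of the 8 members was -0.11, that of the 35 -ps rows -0.28 and that of all genes 0.03. With the filter dropped, Rpl10l gave -0.54 after pump removal (limma, unadjusted p 0.00278, adjusted p 0.794). Rpl39l gave -0.31, Rpl36al -0.18 and Rpl3l 0.01. In chronic mice the lowest adjusted p of a member was 0.591, for Rps27rt at 0.27, and without C57BL/6J saline mouse 3 it was 0.166, for Rpl41 at 0.46. The phase difference of the nicotine effect gave 0 members and 0% of all genes in both strains, with Rpl41 at 0.41 in C57BL/6J (0.59 without saline mouse 3) and -0.42 in DBA/2J. Averaged over the strains, nicotine gave 0 members and 0% of all genes in chronic and in withdrawal mice, with member differences between -0.07 and 0.09 and between -0.06 and 0. Without C57BL/6J chronic saline mouse 3 the chronic values lay between -0.14 and 0.03.

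Pump removal alone was compared among saline mice. No member passed, and 0% of all genes tested did, in either strain. In C57BL/6J the median member difference was 0.06, and -0.01 without chronic saline mouse 3. In DBA/2J 3 of 8 members had an unadjusted p under 0.05, and so did 4.05% of all genes. Rpl41 gave 0.36, Rps27rt 0.28 and Rpl7a 0.20, each with an adjusted p of 1. These comparisons share the saline withdrawal mice with the nicotine comparisons above, so that their values are not independent: the DBA/2J saline withdrawal mice are also the reference of the -0.31, -0.23 and -0.20 given for Rpl41, Rps27rt and Rpl7a.

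Members were also compared with each other within groups, as deviations of 46 mice from their group means (28 pairs, Pearson's r and Spearman's rho, two-sided permutation tests within groups, 100000 resamples, chosen after seeing the data). The 5 rows at retrocopies, at pseudogenes or within another gene moved together from mouse to mouse. Of their 10 pairs, 9 passed an adjusted p of 0.05 by Pearson's r and 8 by Spearman's rho, with r from 0.24 to 0.63 and a median of 0.55. Over all pairs of genes tested the median r was 0.03, with quartiles at -0.13 and 0.19. Of the 15 pairs between such a row and Rps27l, Rps19bp1 or Rpl7l1, 0 passed by Pearson's r and 1 by Spearman's rho, with r from -0.20 to 0.35. Rps19bp1 and Rpl7l1 gave r 0.43 (adjusted p 0.0114), and Rps27l and Rpl7l1 0.39 (adjusted p 0.033).

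The closest pairs by r were Rpl7a with Rpl41 and Rpl32l with Rpl41, both at r 0.63. Rpl7a and Rpl41 had a permutation p of 9e-05 (adjusted p 0.00252) and rho 0.53 (permutation p 0.0006, adjusted p 0.0147). Their r was 0.52 without the 2 mice farthest from the median in Rpl7a. Rpl32l and Rpl41 had a permutation p of 0.00061 (adjusted p 0.00511) and rho 0.43 (adjusted p 0.0293). Rpl31 and Rps27rt, whose strain differences have opposite signs, gave r 0.60 (permutation p 0.00018, adjusted p 0.00252) and rho 0.48 (adjusted p 0.0147). Their r was 0.47 without the 2 mice farthest from the median in Rpl31. C57BL/6J chronic saline mouse 3 raised these values. Without it, 4 of the 10 pairs passed, r ran from 0.04 to 0.51 with a median of 0.38, Rpl7a and Rpl41 gave 0.51 (permutation test, adjusted p 0.03), and 1 of the 15 mixed pairs passed. With each array centred on its median, r over the 10 pairs ran from 0.22 to 0.58.

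**Figure D4:**
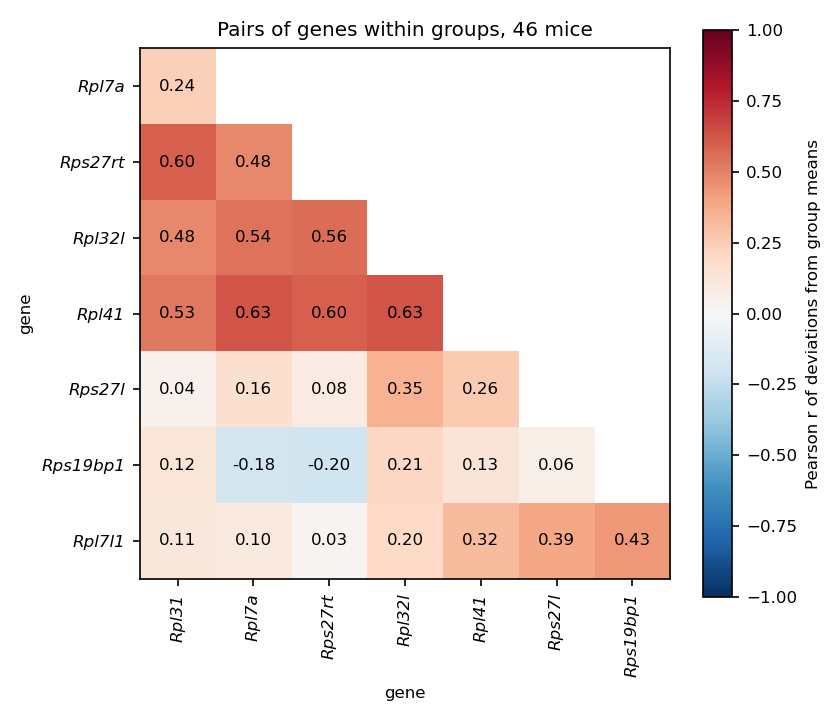
Pearson's r between the deviations of 2 rows from their group means over 46 mice, for the 28 pairs of the 8 tested rows. The block of Rpl31, Rpl7a, Rps27rt, Rpl32l and Rpl41 holds values from 0.24 to 0.63, and values for pairs with Rps27l, Rps19bp1 or Rpl7l1 outside that block run from -0.20 to 0.43.

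Per-array values of the members on chromosomes 1 to 6 were not analysed here, and for these the authors' S-scores were used, signed standardised differences of each nicotine mouse from the pooled saline mice of the same strain and phase. In each of the 4 nicotine groups 0 of 17 members and 0% of all 25801 genes tested passed an adjusted p of 0.05. When the spread of the saline mice was left out of the error, 5 and 1 genes passed in C57BL/6J chronic and withdrawal mice and 113 and 223 in DBA/2J, with 0 members among them. Rpl22l1, a paralogue of the large subunit gene Rpl22, scored -1.11, -2.04, -3.36, -2.93 and 0.57 in the DBA/2J withdrawal mice. It was negative in 4 of 5, with a mean of -1.77 (SD 1.57, adjusted p 0.707). The retrocopy Rpl37rt scored -0.61, -1.88, -2.41, -1.38 and -0.01 in the same mice, negative in 5 of 5, with a mean of -1.26 (SD 0.96, adjusted p 0.704). In C57BL/6J withdrawal mice Rpl37rt was positive in 5 of 6, with a mean of 0.72 (SD 1.12). All mice of a group share the same saline reference, so mice of the same sign are not independent.

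Rps4l, the transcribed pseudogene related to Rps4x, was negative in 5 of 5 C57BL/6J chronic mice, from -1.58 to -0.11 with a mean of -0.88 (SD 0.56, adjusted p 1), and in 6 of 6 C57BL/6J withdrawal mice, with a mean of -0.64. In DBA/2J its means were 0.19 and 0.26. The rows named Rpl35 and Rpl29 had means between -0.75 and 0.63 in the 4 groups, and the signs of their mice were mixed in each group. In DBA/2J withdrawal mice Rps27l was negative in 5 of 5 (mean -0.91) and Rps19bp1 positive in 5 of 5 (mean 0.85), with adjusted p-values of 0.704 and 0.757. Rpl7a and Rpl39l were also negative in 5 of 5 of these mice, with means of -0.61 and -0.64. How many of all genes had the same sign in every mouse of a group was not counted.

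**Figure D5:**
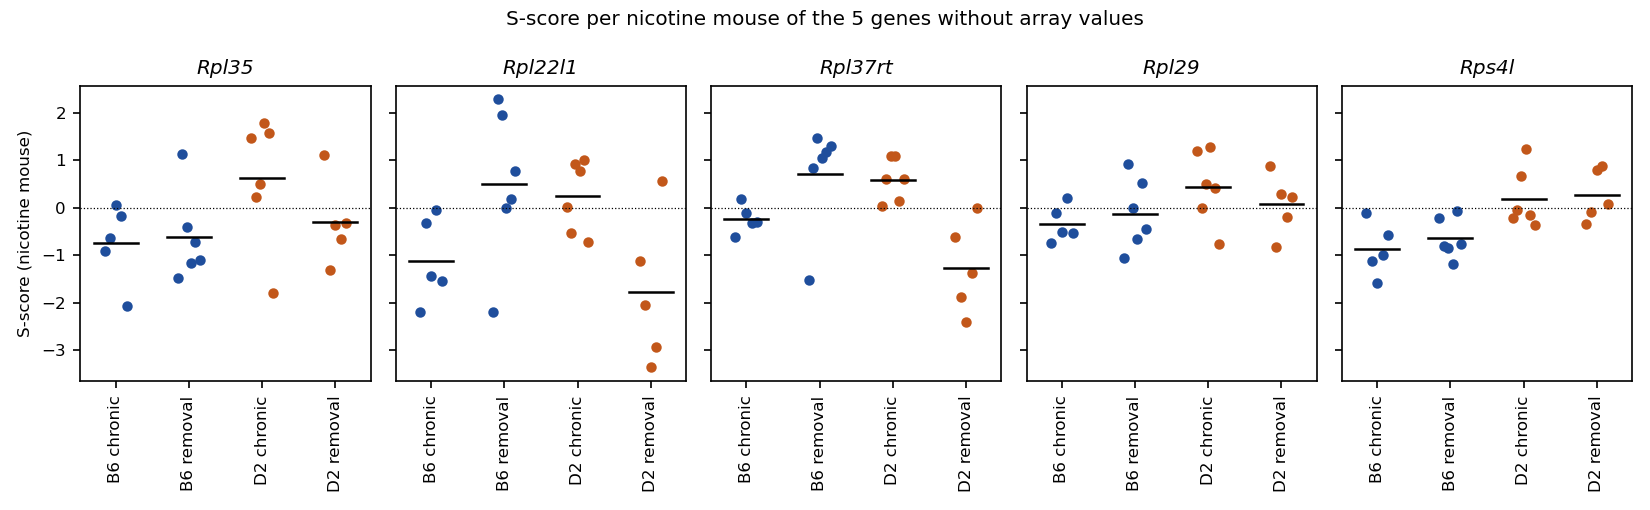
S-score of each nicotine mouse (points) and group mean (bars) for the 5 rows without per-array values, by strain (B6 is C57BL/6J, blue, and D2 is DBA/2J, orange) and phase (removal means that the pump was taken out). The lowest score, -3.36, is Rpl22l1 in a DBA/2J withdrawal mouse, and no group mean passed an adjusted p of 0.05.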

How the data were processed

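RNA was labelled with Affymetrix whole-transcript kits, per the labels' protocols. The authors deposited 1 log2 value per array and transcript cluster, already scaled between arrays, with summarisation, scaling and build not given in the sources used here. The S-scores, 1 column for each of the 22 nicotine mice per the file headers, were deposited as standardised score values, not fold changes, with other columns for annotation (probe number). No batch is named in the labels.

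The members and gene lists were chosen with earlier results of these data known. Features with 1 gene were kept, 1 per gene (the highest mean), and had to exceed the 50th percentile of non-control features on at least 5 arrays, which left 9596 genes. A limma model (version 3.58.1; lmFit, eBayes) with 8 group means was fitted in R 4.3.3, with 4.14 prior added to 38 residual degrees of freedom. All adjusted p-values of the log2 values and S-scores are limma's, with Benjamini-Hochberg adjustment over all genes within each contrast and a threshold of 0.05. For S-scores the standard error was widened for the number of saline mice. Named were members that passed, or else the 2 smallest p-values in each direction, with the paralogues, and up to 4 called genes per list. Rows 'higher' or 'lower' passed the test. Permutations used Python 3.11.15 with numpy and pandas, and matplotlib drew the figures. The fit was tested on simulated data. Alternatives were other scalings and filters, no filter, the mouse number as a block, 1 phase only and leaving out each mouse. Same-numbered mice did not deviate together (correlations from -0.35 to 0.199), so no pairing was used. Mice were housed 4 to a cage, per the labels, without a record of which shared a cage or litter, so p-values measure the spread between these mice. The position of 1 row is not reported here.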

Additional observations from a re-analysis of the deposited data

Results flagged for a closer look

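In groups of 5 or 6 mice, 6 of 64 combinations of member and group held 1 mouse whose gap to the next was large against the range of its group; chance flags about 1 in 20 groups. C57BL/6J chronic saline mouse 3 accounted for 3 of these, at 11.63 for Rps27rt (next 12.24), 14.39 for Rpl41 (next 15.22) and 11.84 for Rpl32l (next 12.47). The others were Rpl7a at 11.90 in DBA/2J chronic saline mouse 1 (next 12.18), Rps27l at 8.16 in DBA/2J withdrawal nicotine mouse 3 (next 8.30) and Rpl41 at 15.80 in C57BL/6J withdrawal saline mouse 6 (next 15.37).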

How the results depend on the processing

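The number of members called was 0 in each nicotine, pump-removal and interaction contrast under every alternative run. For strain it was 6 among saline and 3 among nicotine mice, 1 among saline mice with the chronic groups only, 1 among nicotine mice with the withdrawal groups only, and 5 to 6 and 3 when 1 mouse was left out. With the replicate block it stayed at 6 and 3, and the block changed no member's call; the numbers do not pair the mice. Rpl7l1 kept its call in 14 of 24 fits without 1 saline mouse (adjusted p up to 0.0849) and lost it with quantile normalization (0.114). Rps27l in nicotine mice lost its call with centred arrays (0.0536). No reversed value passed the test. Rps19bp1 in withdrawal over the strains gave -0.01 with centred and with quantile-normalized arrays. Among nicotine mice the strain difference of Rpl41 was 0 with centred arrays and -0.26 in withdrawal groups only, and in chronic groups only Rps19bp1 gave 0 and Rpl32l 0.12. Leaving out 1 mouse gave ranges across 0. In C57BL/6J chronic mice these were -0.08 to 0.10 for Rpl31 and -0.06 to 0.07 for Rpl7a, and in DBA/2J chronic mice -0.04 to 0.01 for Rps27l. For the phase difference in C57BL/6J they were -0.09 to 0.09 for Rpl31 and -0.06 to 0.04 for Rpl7l1. For saline pump removal they were -0.16 to 0.05 for Rps27rt and -0.01 to 0.17 for Rpl32l in C57BL/6J, and -0.07 to 0.04 for Rpl31 in DBA/2J. They were -0.03 to 0.02 for Rps19bp1 in withdrawal over the strains, and -0.02 to 0.09 for Rpl41 and -0.05 to 0 for Rpl32l between strains in nicotine mice. The cause was not tested. Genes called between strains fell to 1835 and 1722 (saline mice) and 1595 and 1466 (nicotine mice) in chronic and withdrawal groups only, with fewer mice, and to 1995 and 1610 above the 75th percentile, with fewer genes tested. In DBA/2J withdrawal 3 genes passed with that contrast's groups only, and 2 passed for the drug difference of the strain effect with the replicate block (0 to 6 when 1 mouse was left out), none of them members.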
